A study of Mus musculus with 6 samples.

Results

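The 10 genes described here are textbook targets of p53, the transcription factor that responds to DNA damage and other stress. They are Cdkn1a, Mdm2, Ccng1, Trp53inp1, Sesn2, Zmat3, Eda2r, Phlda3, Perp and Plk2. They were chosen by name, with earlier results of these data known. Their symbols were matched to the Ensembl identifiers of the deposited count table, which holds 31384 genes. All 10 were found and all 10 passed the filter on low counts. The cells were a mouse spermatogonial stem cell line grown on mouse embryonic fibroblasts that had been treated with mitomycin C, a DNA cross-linking agent used to stop feeder cells from dividing. PTC cultures received 10 ng/mL GDNF, the factor that maintains spermatogonial stem cells, together with 10 ng/mL EGF, 10 ng/mL FGF2 and LIF. NTC cultures had that medium without GDNF, and LOVA cultures had 5 uM lovastatin, an inhibitor of cholesterol synthesis, in place of GDNF. RNA was taken on day 18 from 2 libraries per group. The labels give neither strain nor age, and they do not tell separate cultures from repeat libraries of one culture, so p-values reflect library-to-library spread that may be technical. Where 2 values stand for a group, library A comes before library B.

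p53 is kept scarce in unstressed cells because its own target Mdm2 marks it for destruction. When DNA is damaged this brake is released, and p53 switches on genes that stop the cell cycle, restrain growth signalling or promote cell death. The pathway works in fibroblasts as well as in germ cells, and in spermatogonia it is known for its part in the loss of damaged cells.

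Each library is bulk RNA from stem cells and feeders, and the shares of counts from their marker genes differed between groups. Total counts ranged from 12454671 to 22668087. A list of 21 feeder fibroblast markers took 0.143% and 0.631% of counts in PTC, 1.89% and 3.03% in NTC, and 1.64% and 3.02% in LOVA. A list of 19 pan-germ-cell genes took 0.533% ± 0.00452 (SD, n = 2) in PTC, 0.246% ± 0.0709 in NTC and 0.270% ± 0.116 in LOVA, and no germ cell marker of that list was called higher outside PTC. Macrophage markers took 0.0233% ± 0.00256, 0.196% ± 0.0301 and 0.0426% ± 0.00463 in the same order, while Sertoli, Leydig and endothelial markers each stayed at or under 0.00361% in every library and epithelial markers at or under 0.0241%. In such mixtures, fewer cells of a type and less RNA per cell cannot be told apart.

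Values are CPM, counts adjusted to library size, with libraries scaled by TMM, a method that assumes most genes do not change. A gene was called at an adjusted p under 0.05 in edgeR's quasi-likelihood test over 16121 genes. Most of the 10 genes were higher in the groups without GDNF than in PTC on this scale, by very unequal amounts, but 9 of the 10 fold changes turned negative when libraries were scaled to the feeder markers, a scaling that moved the median of all genes by -3.40 (log2) in NTC and -3.25 in LOVA. In NTC minus PTC 7 of the 10 were called higher, where 21.5% of all genes tested were, and none was called lower, where 12.9% were. In LOVA minus PTC 8 of the 10 were called higher, against 19.8% of all genes, and none lower, against 10.8%. Both comparisons use the same PTC libraries and are not independent of each other. Both NTC libraries lay above both PTC libraries for 10 of 10 genes, against 39.0% of all genes tested, and both LOVA libraries did for 9 of 10, against 38.4%. The count in NTC minus PTC fell to 0 without NTC B, where 1 gene of the whole table was called higher and 0 lower, with a median log2 fold change of the 10 of 1.99 against 2.15 with that library. The count in LOVA minus PTC fell to 4 without LOVA B, where 3.72% of all genes were called higher, and to 5 without PTC A, where 4.18% were. Losses of single calls without these libraries stand against those shares.

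**Figure D1:**
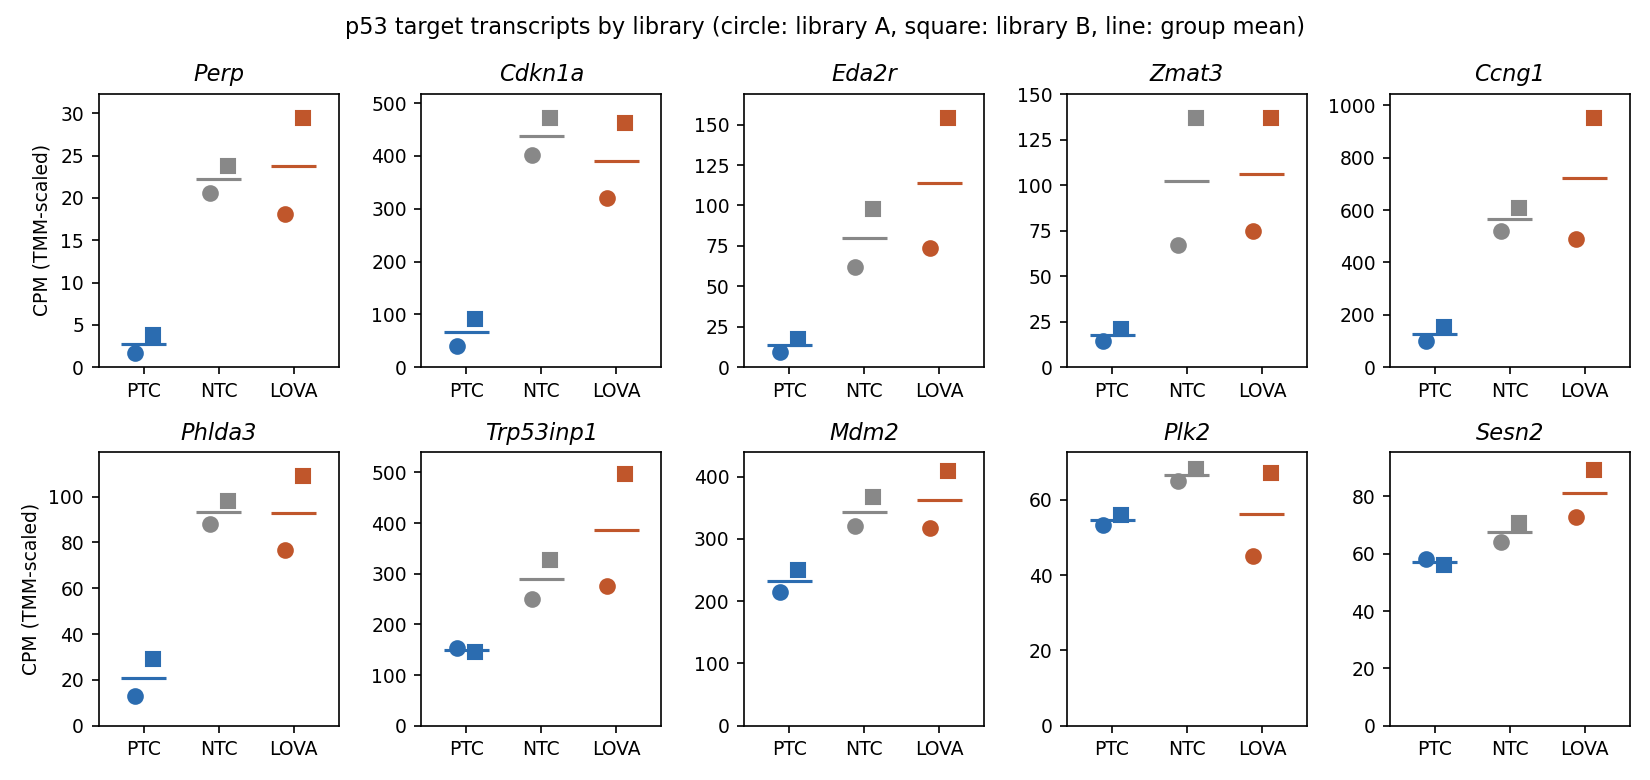
CPM of each of the 10 genes (vertical axes, linear from 0) in the 6 libraries, by group; circles are A libraries, squares B libraries and lines group means. The 6 genes from Perp to Phlda3 lie far above PTC in all NTC and LOVA libraries, while Plk2 and Sesn2 differ little; these are TMM-scaled values, which turn for all but Perp when libraries are scaled to feeder markers.

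The changes fell into a steep and a shallow class. Perp, Cdkn1a, Eda2r, Zmat3, Ccng1 and Phlda3 were called higher by at least 4-fold in both comparisons, a size reached by 11.2% of all genes tested in NTC minus PTC and 9.85% in LOVA minus PTC. Trp53inp1, Mdm2, Plk2 and Sesn2 had log2 fold changes between 0.24 and 0.95 in NTC and between 0.04 and 1.37 in LOVA. The median of the 10 was 2.15 in NTC minus PTC and 2.33 in LOVA minus PTC, beside medians of -0.02 and 0 for all genes tested.

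The promoters of the 10 genes were searched for the p53 motif, a pair of half-sites. RefSeq windows (GRCm38.p6) from 250 bases before to 50 bases after the start were at hand for 7 of the 10 genes and 27025 genes in all; Perp, Trp53inp1 and Zmat3 had none. A p53 half-site was matched in 3 of the 7, Cdkn1a, Mdm2 and Ccng1, and in 9.55% of all genes. A full site of paired half-sites up to 13 bases apart was matched in 1 of the 7, Cdkn1a, and in 0.074% of all genes. Full sites without spacer and with at most 1 mismatch were matched in 2, Cdkn1a and Ccng1, and in 0.107% of all genes. The motif reads the same on both strands, and these 3 searches overlap. The 250 bases before the start of those 3 genes are printed because they hold the matches, each read 5′ to 3′ on the strand of the gene. Capitals mark half-sites and full sites without spacer, while the spacer between the paired Cdkn1a half-sites is in lower case.
Cdkn1a, chr17:29090729-29090978 (plus strand), before the upstream start at 29090979: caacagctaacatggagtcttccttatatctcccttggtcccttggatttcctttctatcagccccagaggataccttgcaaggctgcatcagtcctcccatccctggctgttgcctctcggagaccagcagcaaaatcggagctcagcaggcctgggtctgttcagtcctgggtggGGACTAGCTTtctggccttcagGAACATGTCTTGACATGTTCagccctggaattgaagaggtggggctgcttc
Ccng1, chr11:40755287-40755536 (minus strand): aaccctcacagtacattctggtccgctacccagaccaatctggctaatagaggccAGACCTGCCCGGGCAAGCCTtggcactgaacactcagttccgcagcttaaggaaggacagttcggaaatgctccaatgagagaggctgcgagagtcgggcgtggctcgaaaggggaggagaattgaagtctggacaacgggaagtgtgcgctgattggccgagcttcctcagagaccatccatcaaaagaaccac
Mdm2, chr10:117710759-117711008 (minus strand): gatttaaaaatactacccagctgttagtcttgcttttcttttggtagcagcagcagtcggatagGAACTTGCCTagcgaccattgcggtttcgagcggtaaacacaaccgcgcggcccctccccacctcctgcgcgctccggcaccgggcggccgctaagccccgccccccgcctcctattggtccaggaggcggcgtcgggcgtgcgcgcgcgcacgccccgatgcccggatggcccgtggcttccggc

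In Cdkn1a the matches belong to an upstream start, with half-sites at -73 to -64 and -51 to -42 and the full site with 1 mismatch at -51 to -32, counted from that start. The window of the second Cdkn1a start, at 29093769, held no match. In Ccng1 the half-site was at -185 to -176 within a full site with a mismatch from -195, and in Mdm2 the single half-site was at -186 to -177. The steep genes Eda2r and Phlda3 and the shallow genes Sesn2 and Plk2 had no p53 match in their windows. Of the other motifs searched on both strands, GGGCGG was in 6 of the 7 (38.2% of all genes), CCAAT in 4 (41.1%), TATAAA in 1, Eda2r (15.7%), and TGATGCAA, a core of ATF4 sites, in 0 (1.03%). A match describes letters in a window and not binding by p53.

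Cell cycle arrest was represented by Cdkn1a, which encodes p21, the inhibitor of cyclin-dependent kinases through which p53 halts division. Cdkn1a (ENSMUSG00000023067, chromosome 17, 29090976 to 29100727 on GRCm38) was at 40.9 and 91.5 CPM in PTC, 402 and 472 in NTC, with 320 and 462 in LOVA. The groups without GDNF did not overlap PTC, and they overlapped each other. The difference from PTC was 6.59-fold in NTC (log2 fold change 2.72, SE 0.40, edgeR adjusted p = 0.00963) and 5.90-fold in LOVA (2.56, SE 0.40, adjusted p = 0.0167). The PTC libraries themselves stood 2.24-fold apart, and the one with the larger feeder share was the higher. Scaled to feeder markers, the log2 fold changes were -0.33 in NTC and -0.40 in LOVA, neither called. Cdkn1a lost its call without NTC B in the first comparison (adjusted p = 0.0685) and without LOVA B in the second (adjusted p = 0.102).

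Ccng1 encodes cyclin G1, a cyclin induced by p53 that acts back on the p53 and Mdm2 circuit. It lies on chromosome 11 (40748552 to 40755311). Its level was 99.5 and 153 CPM in PTC, 522 and 608 in NTC, with 490 and 953 in LOVA. Every library without GDNF was above both PTC libraries, and LOVA B stood highest. The log2 fold change was 2.16 in NTC (SE 0.36, adjusted p = 0.0109 in edgeR) and 2.52 in LOVA (SE 0.36, adjusted p = 0.0167), and with feeder scaling -1.08 and -0.72, not called. In CPM per kilobase of summed exons, a level that can be compared between genes, Ccng1 was second to Mdm2 in PTC (35.9 ± 10.7 against 45.8 ± 4.81, SD, n = 2, with B of Ccng1 above A of Mdm2). In NTC and LOVA Ccng1 was the most abundant of the 10 per kilobase (161 ± 17.3 and 205 ± 93.4) and Cdkn1a followed (123 ± 13.9 and 110 ± 28.2); their libraries did not overlap in either group.

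Mdm2 encodes the ubiquitin ligase that degrades p53, and its transcription by p53 closes the feedback loop. Mdm2 (chromosome 10, 117688875 to 117710758) was at 215 and 250 CPM in PTC, 320 and 367 in NTC, with 317 and 409 in LOVA. All 4 libraries without GDNF were above both PTC libraries, at a far smaller distance than for Cdkn1a. The log2 fold change was 0.56 in NTC (SE 0.19, 95% interval 0.11 to 1.01, edgeR adjusted p = 0.0584, not called) and 0.64 in LOVA (SE 0.19, interval 0.19 to 1.10, adjusted p = 0.0440, called). The NTC difference passed in limma-voom (adjusted p = 0.0426) and in edgeR when only PTC and NTC were fitted (0.0210). It also passed in edgeR with pan-germ-cell scaling (1.64, adjusted p = 0.041). With DESeq2 size factors, total counts, no filter or DESeq2 it did not pass. The LOVA difference was lost in edgeR when only PTC and LOVA were fitted (0.0740) and with total counts (0.0685). It was also lost without any 1 of PTC A, PTC B, NTC A, NTC B and LOVA B. Scaled to feeder markers, Mdm2 was lower, by -2.82 in NTC (adjusted p = 0.0357) and -2.63 in LOVA (adjusted p = 0.0494).

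Zmat3 encodes a zinc finger protein that binds RNA, and Plk2 a polo-like kinase induced by stress. Zmat3 (chromosome 3, 32334792 to 32366014) rose from 14.3 and 20.9 CPM in PTC to 67.0 and 137 in NTC, and to 74.9 and 137 in LOVA. Neither group overlapped PTC, although NTC A and B were 2.05-fold apart. On the TMM scale it differed by log2 2.54 in NTC (SE 0.45, edgeR adjusted p = 0.0128) and 2.59 in LOVA (SE 0.45, adjusted p = 0.0171). Without NTC B the first lost its call (1.93, adjusted p = 0.0724), and the second did without LOVA B (0.0855) or PTC A (0.0545). Plk2 (chromosome 13, 110395046 to 110400844) was at 53.2 and 56.0 CPM in PTC, 64.9 and 68.1 in NTC, with 45.1 and 67.2 in LOVA. The LOVA libraries lay on either side of PTC. Its log2 fold change was 0.28 in NTC (95% interval -0.25 to 0.81) and 0.04 in LOVA (-0.49 to 0.57), so a change above 2-fold in either direction lies outside both intervals on the TMM scale. With feeder scaling Plk2 was called lower in both groups (-3.13 and -3.31).

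Cell death and membrane signalling were represented by Perp, Eda2r and Phlda3. Perp, a membrane protein of desmosomes that p53 induces during apoptosis, had the highest fold change of the 10 on the TMM scale in both comparisons and was among the scarcest in PTC per kilobase (1.38 ± 0.768 CPM per kilobase, SD, n = 2, beside 1.54 ± 0.407 for Zmat3). Perp (chromosome 10, 18845020 to 18857073) had 26 and 88 counts in PTC, or 1.63 and 3.75 CPM, against 20.6 and 23.8 CPM in NTC, with 18.1 and 29.4 in LOVA. The lowest library without GDNF was still well above the higher PTC library. The log2 fold change was 3.02 in NTC (SE 0.45, edgeR adjusted p = 0.00971) and 3.11 in LOVA (SE 0.45, adjusted p = 0.0167). It was 0.03 and 0.18 with feeder scaling, not called. Without NTC B the NTC value was 2.91 (adjusted p = 0.0660). Of 12 desmosome genes 6 passed the filter, and Dsp alone was called, at 0.899 CPM in PTC, 4.18 in NTC and 5.90 in LOVA. Its counts in PTC were only 11 and 26, and 21.5% and 19.8% of all genes were called higher in the 2 comparisons. Feeder scaling called 4 of the 6 lower and 0 higher in both, where 73.5% and 71.4% of all genes were called lower.

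Eda2r, a receptor of the TNF receptor family for ectodysplasin A2, lies on the X chromosome (97333840 to 97377216). It was at 9.66 and 17.4 CPM in PTC, 61.9 and 97.9 in NTC, with 73.9 and 154 in LOVA. LOVA B was more than 2-fold above LOVA A (ratio 2.08), and no library without GDNF came near PTC. In NTC the log2 fold change was 2.56 (SE 0.46, edgeR adjusted p = 0.0134) and 3.07 in LOVA (SE 0.47, adjusted p = 0.0167). With feeder scaling it was -0.66 and -0.09, and without NTC B the NTC value lost its call (adjusted p = 0.0878). Eda, the gene of its ligand, was at 6.19 CPM in PTC, 10.2 in NTC and 11.1 in LOVA and was not called; it was named after its values were seen.

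Phlda3, a small PH-domain protein that restrains the survival kinase Akt, lies on chromosome 1 (135766119 to 135769136). It was at 13.0 and 29.0 CPM in PTC, 88.0 and 98.3 in NTC, with 76.9 and 109 in LOVA. As for Cdkn1a, PTC B was over 2-fold above PTC A (2.23). Both comparisons gave a log2 fold change of 2.14 (SE 0.38, edgeR adjusted p = 0.0127 in NTC and 0.0174 in LOVA), and -0.89 and -0.81 with feeder scaling. The calls were lost without NTC B (adjusted p = 0.0836) and without LOVA B (0.0925) respectively.

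Stress and metabolic control were represented by Trp53inp1 and Sesn2. Trp53inp1, a nuclear stress protein that takes part in apoptosis and autophagy, lies on chromosome 4 (11156431 to 11174379). It was at 154 and 145 CPM in PTC, 251 and 327 in NTC, with 275 and 497 in LOVA. The PTC libraries lay close together and those without GDNF spread widely above them. In NTC the log2 fold change was 0.95 (SE 0.29, edgeR adjusted p = 0.0438) and 1.37 in LOVA (SE 0.29, adjusted p = 0.0221). The NTC call was lost with total counts (0.0503) and without PTC A, PTC B, NTC A or NTC B, and the LOVA call without PTC A or PTC B. Feeder scaling gave -2.55 and -2.08, not called.

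Sesn2, a sestrin that lowers mTORC1 activity and is also induced through the stress factor ATF4, lies on chromosome 4 (132492032 to 132510501). It was at 58.0 and 56.2 CPM in PTC, 64.1 and 70.8 in NTC, with 72.8 and 89.3 in LOVA. All NTC and LOVA libraries were above both PTC libraries by small steps, and both LOVA libraries were above both NTC libraries. The log2 fold change was 0.24 in NTC (95% interval -0.19 to 0.67, edgeR adjusted p = 0.327) and 0.51 in LOVA (0.08 to 0.93, adjusted p = 0.0719). Neither was called. The LOVA difference passed with pan-germ-cell scaling (1.54, adjusted p = 0.0440) and without LOVA A (0.0304), and with feeder scaling both differences were called lower (-3.22 and -2.83). A short transcript on the same strand, Gm12981, overlaps Sesn2 and had too few counts to add to it, at most 6 in any library.

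**Figure D2:**
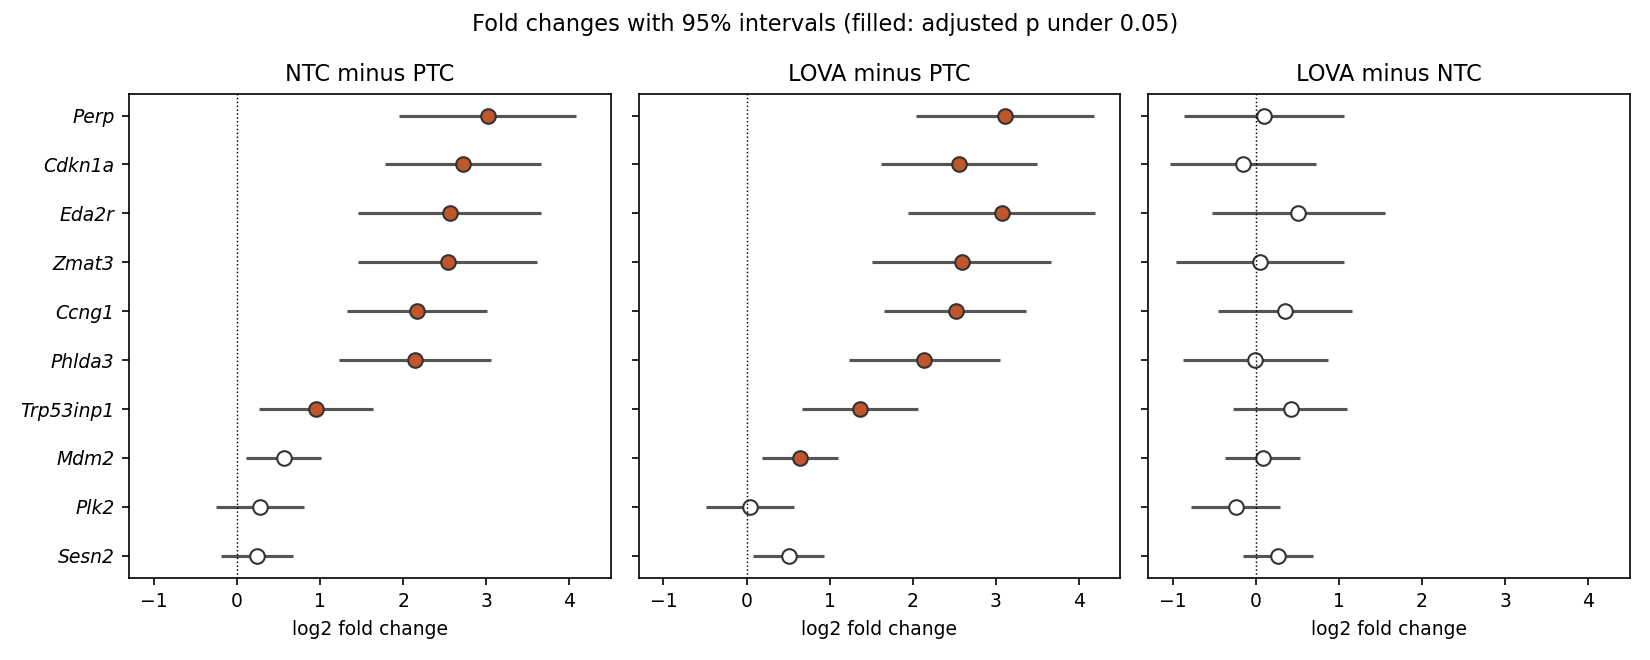
Log2 fold change of each gene (horizontal axes) with its 95% interval, for NTC minus PTC, LOVA minus PTC and LOVA minus NTC on the TMM scale; filled points were called. The 6 genes from Perp to Phlda3 lie at 2.14 or above against PTC, and all 10 intervals of LOVA minus NTC include 0; feeder scaling turns all but Perp below 0 against PTC.

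Lovastatin did not shift the 10 genes away from the medium without GDNF by an amount the data could call. In LOVA minus NTC none was called higher or lower by edgeR, as for all genes tested (0% in each direction), and none had an unadjusted p under 0.05, where 3.48% of all genes did. DESeq2 and limma-voom also called 0 of the 10, although over all genes they called 25 higher and 95 lower, and 1 higher and 9 lower. Both LOVA libraries were above both NTC libraries for 1 of the 10, Sesn2, against 12.7% of all genes, and below them for 0, against 13.0%. Log2 fold changes ran from -0.24 for Plk2 (95% interval -0.78 to 0.29) to 0.51 for Eda2r (-0.53 to 1.55), with a median of 0.09. The intervals were narrowest for Mdm2 (-0.37 to 0.53) and Sesn2 (-0.16 to 0.69) and reached -1.04 to 0.72 for Cdkn1a (value -0.16). A doubling in LOVA lies outside the intervals of Mdm2, Sesn2, Cdkn1a, Plk2 and Phlda3 (-0.88 to 0.87). It lies inside those of Eda2r, Ccng1 (-0.46 to 1.16), Zmat3 (-0.96 to 1.06), Perp (-0.87 to 1.06) and Trp53inp1 (-0.27 to 1.10). A halving lies inside the interval of Cdkn1a only. The feeder share was about equal in these groups, while the macrophage share was 0.196% in NTC and 0.0426% in LOVA.

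The mRNA of p53 itself was not called in either comparison on the TMM scale. Trp53, its gene, was at 60.4 and 49.5 CPM in PTC, 61.2 and 59.8 in NTC, with 65.7 and 59.9 in LOVA. Its log2 fold change was 0.14 in NTC (95% interval -0.29 to 0.57) and 0.19 in LOVA (-0.24 to 0.62), with overlapping libraries. Scaled to pan-germ-cell genes Trp53 was at 1.19 in NTC (adjusted p = 0.0468) and 1.17 in LOVA (0.0520), and scaled to feeder markers it was called lower (-3.37 and -3.15), as most genes were. p53 activity is set mainly at the protein level, which was not measured. Mdm4, a partner of Mdm2 that blocks p53, was at 181 ± 22.3 CPM in PTC, 151 ± 5.01 in NTC and 202 ± 35.7 in LOVA (SD, n = 2) and was not called on the TMM scale, while feeder scaling called it lower (-3.76 and -3.25). Trp63, a p53 relative, had 1 and 0 counts in PTC, 4 and 25 in NTC, with 11 and 6 in LOVA, and was called higher in NTC only, with too few counts to read a size from; the difference between LOVA and NTC was not called.

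Other genes of the pathway moved in both directions. Of 30 other p53 targets, all tested, 15 were called higher and 6 lower in NTC minus PTC (median log2 fold change 0.68), and 13 higher and 4 lower in LOVA minus PTC (median 0.54). The shares over all genes were 21.5% higher and 12.9% lower in NTC, and 19.8% and 10.8% in LOVA. The largest changes belonged to Ddit4l, an inhibitor of mTORC1 (3.58 in NTC, SE 0.55, and 3.78 in LOVA, SE 0.55), and the death receptor Fas (3.55 and 3.35, SE 0.47 in both). The lower group in both comparisons included the DNA repair gene Xpc (-1.03 and -0.91) and Tigar, a regulator of glycolysis (-0.92 and -0.97), both named after their values were seen. Among 20 tested genes for p53 and proteins that act on it, 3 were called higher and 8 lower in NTC (median -0.60). In LOVA 1 was called higher and 5 lower (median -0.37). The same shares over all genes stand beside these counts. Ppm1d, a phosphatase that switches the p53 response off and is itself induced by p53, fell from 129 CPM in PTC to 54.2 in NTC and 55.3 in LOVA (log2 -1.25 and -1.22, SE 0.25). The kinase gene Chek2 was called lower in LOVA (-1.25, SE 0.38) and not in NTC (-1.03, adjusted p = 0.0732). Scaled to pan-germ-cell genes, the other targets had 16 higher and 0 lower in NTC and 17 and 0 in LOVA, and the regulators 4 and 0 and then 3 and 0. Of all genes tested, 32.3% and 28.3% were called higher with that scaling. Scaled to feeder markers, the other targets had 0 higher and 17 lower in NTC and 0 and 15 in LOVA, and the regulators 0 and 19 in both, where 73.5% and 71.4% of all genes tested were called lower.

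The cell cycle genes that p53 lowers through p21 and the DREAM repressor complex lay below PTC. Of 25 such genes none was called higher, where 21.5% of all genes were in NTC and 19.8% in LOVA. Called lower were 17 in NTC and 14 in LOVA, against 12.9% and 10.8% of all genes, with medians of -1.20 and -1.06. Cdc20, an activator of the anaphase ligase, was at 254 CPM in PTC, 87.8 in NTC and 87.6 in LOVA, and Cdc25c, a phosphatase that starts mitosis, at 29.2, 10.7 and 8.88. Pan-germ-cell genes had medians of -1.08 and -1.09 in the same comparisons. With libraries scaled to them the cell cycle medians were -0.18 and -0.16 with 0 genes called. That scaling called 0.248% of all genes lower in NTC and 0.205% in LOVA, and it put the all-gene medians at 1.02 and 0.99. The cell cycle medians thus stayed below those of all genes. Of 6 other CDK inhibitor genes, 3 were called higher in NTC and 2 in LOVA, where 21.5% and 19.8% of all genes were. They were led by Cdkn2b, which encodes p15 (14.4 CPM in PTC, 68.1 in NTC, 58.6 in LOVA), and Cdkn1c, which encodes p57 (56.7, 120 and 123). With feeder scaling 4 of the inhibitors in NTC and 2 in LOVA were called lower instead, and 25 of 25 cell cycle genes in both. Over all genes, 73.5% and 71.4% were called lower with that scaling. Without NTC B none of the genes in these 4 lists was called in NTC minus PTC. Without PTC A fewer genes of the 4 lists were called in NTC minus PTC, and without LOVA B fewer were in LOVA minus PTC. Calls over the whole table fell as well with each of these libraries left out. The losses are therefore not read as a result about these lists.

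Of 19 tested relatives of the 10 genes within their families, 3 were called higher and 2 lower in NTC and 2 higher and 1 lower in LOVA (medians 0.11 and 0.34). Of all genes tested, 21.5% were called higher and 12.9% lower in NTC, and 19.8% and 10.8% in LOVA. Pan-germ-cell scaling gave 4 higher and 0 lower in NTC and 5 and 0 in LOVA, and feeder scaling 0 higher with 16 and 15 lower. Over all genes, the first scaling called 32.3% and 28.3% higher and the second 73.5% and 71.4% lower. Phlda1 was called higher in NTC (1.27, SE 0.38), while Plk1, the mitotic kinase, was called lower (-1.22, SE 0.34). In LOVA the adaptor gene Edaradd was called higher (1.99, SE 0.58) at a low level of 2.07 CPM. Of 14 ATF4 target genes, the second input to Sesn2, 7 were called higher and 3 lower in NTC. In LOVA 5 were called higher and 2 lower, and the medians were 1.09 and 0.94. The largest rises were those of the stress gene Nupr1 (3.85 and 3.14) and the lipoprotein receptor gene Vldlr (2.68 and 3.19). Ddit4 (-1.83 and -1.55) and Slc7a5 (-1.26 and -1.24), named after their values were seen, were called lower in both comparisons. Summed over the list, ATF4 targets made up 0.150% of PTC libraries on average, against 0.108% for NTC and 0.104% for LOVA. Pan-germ-cell scaling gave 8 higher and 0 lower in NTC and 9 and 0 in LOVA, and feeder scaling 0 higher and 6 lower in both. Calls of ATF4 targets and relatives were lost without NTC B in NTC minus PTC, and became fewer without LOVA B in LOVA minus PTC. Calls over the whole table fell as well with each of these libraries left out.

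**Figure D3:**
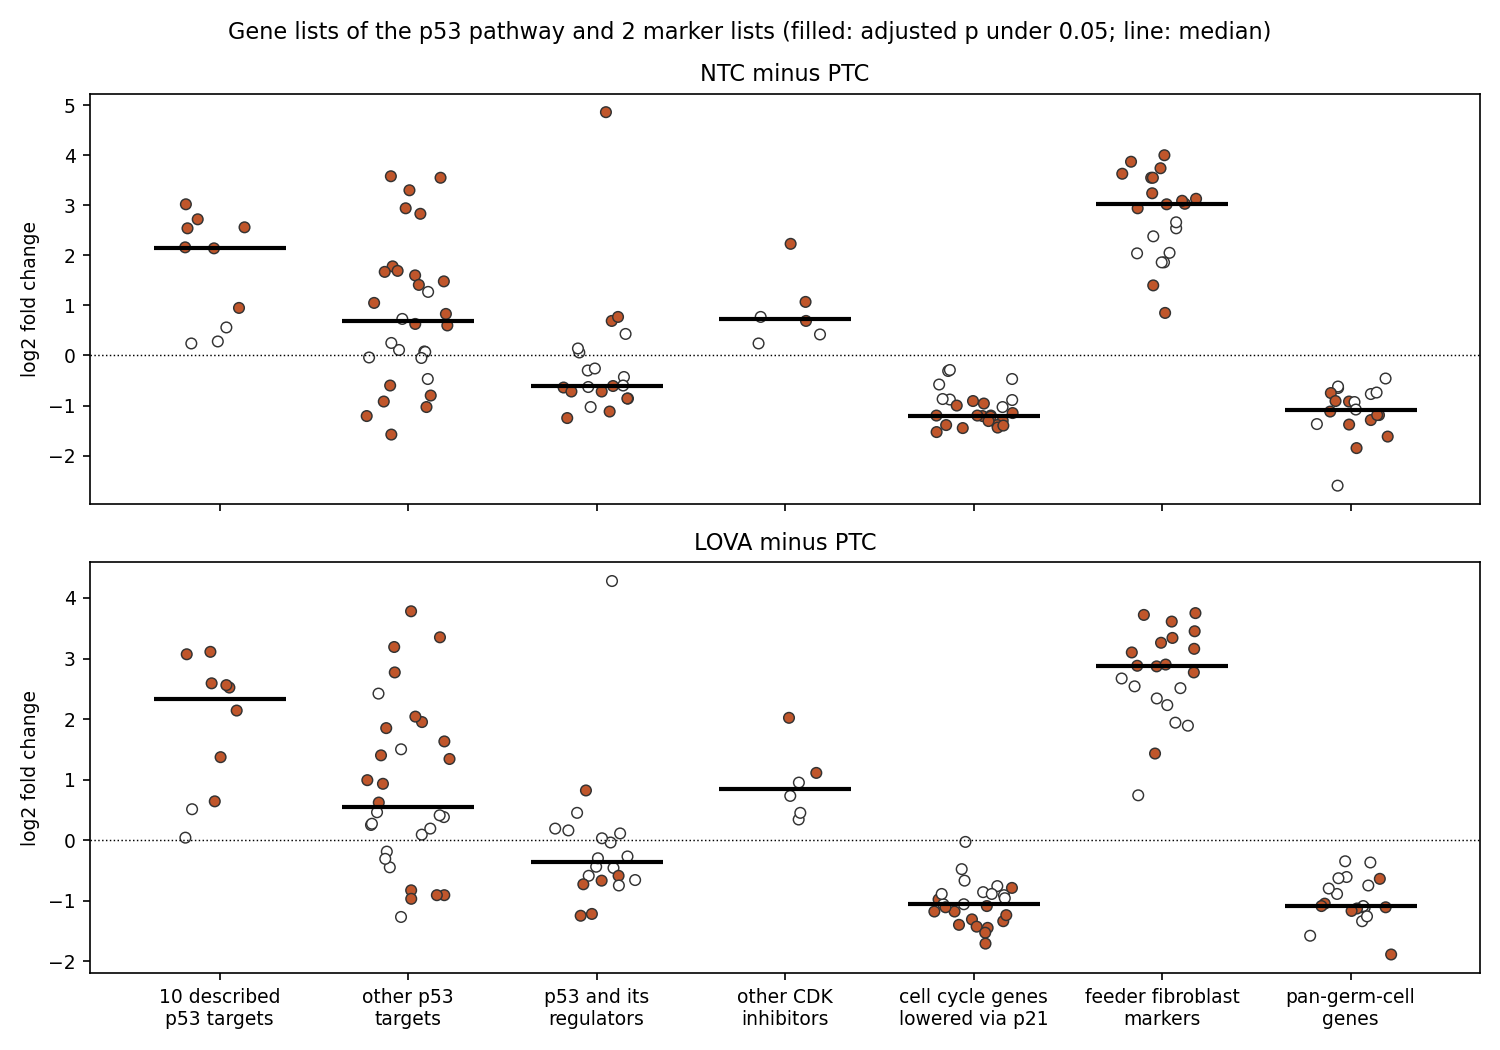
Log2 fold change on the TMM scale (vertical axes) of each tested gene in 7 lists, for NTC minus PTC and LOVA minus PTC; filled points were called and black lines are medians. The 10 genes have medians of 2.15 and 2.33, between those of the other p53 targets (0.68 and 0.54) and the feeder markers (3.02 and 2.87); scaled to feeder markers the first 2 lists have medians below 0.

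The feeder share moved with the 10 genes between groups and also within them, and its part in the differences was not tested. In NTC and in LOVA all 10 were higher in library B, which had the larger feeder share, than in library A, where 49.8% and 51.0% of all genes tested were. In PTC 8 of 10 were, against 57.2% of all genes. The median log2 ratio of B over A was 0.57 in PTC, 0.21 in NTC and 0.63 in LOVA.

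Counted against the feeder markers, the 4 shallow genes were higher in both PTC libraries than in any other library. None of the 6 steep genes was, and these classes differ in TMM fold change by definition. The share of all genes that were higher in both PTC libraries on this scale was not counted. Feeder markers took a larger share of counts outside PTC, which by itself lowers such values there. For every 1000 counts of feeder markers Perp had 1.21 and 0.616 counts in PTC, 1.10 and 0.734 in NTC, with 1.13 and 0.910 in LOVA. Cdkn1a had 30.4 and 15.0 in PTC, 21.5 and 14.5 in NTC, with 20.1 and 14.3 in LOVA. For both, the NTC and LOVA libraries fell within or just below the range spanned by the PTC libraries. Mdm2 instead had 160 and 41.0 in PTC, 17.1 and 11.3 in NTC, with 19.9 and 12.7 in LOVA, and Sesn2 had 43.1 and 9.23, 3.42 and 2.18, and 4.56 and 2.76. PTC A stood apart from PTC B for all 10 genes on this scale. The feeder markers took 0.143% of counts in PTC A and 0.631% in PTC B, and dividing by them by itself raises PTC A.

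Counted against pan-germ-cell genes, all 10 were higher in each library without GDNF than in both PTC libraries. The share of all genes that did so was not counted. Pan-germ-cell genes took a smaller share of counts outside PTC, which by itself raises such values there. For every 1000 counts of those genes Cdkn1a had 8.21 and 17.7 in PTC, 137 and 225 in NTC, with 93.4 and 230 in LOVA. Mdm2 had 43.3 and 48.3, 109 and 175, and 92.6 and 204, and Plk2, with the smallest difference in LOVA, had 10.7 and 10.8, 22.1 and 32.6, and 13.2 and 33.4. In the edgeR fit with that scaling, 8 of the 10 were called higher in NTC and 9 in LOVA. Of all genes tested, 32.3% and 28.3% were called higher with it. With libraries scaled to the feeder markers 0 were called higher and 3 lower in both comparisons, which were Mdm2, Sesn2 and Plk2. Of all genes tested 73.5% were called lower with that scaling in NTC and 71.4% in LOVA, so the 3 of 10 are below the background and are no fall particular to these genes. The median of all genes moved by 1.04 and 0.99 with the first scaling and by -3.40 and -3.25 with the second. A scaling moves all genes by about the same amount, so it decides the signs and not the order of the genes. Which cells carried the transcripts was not tested.

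**Figure D4:**
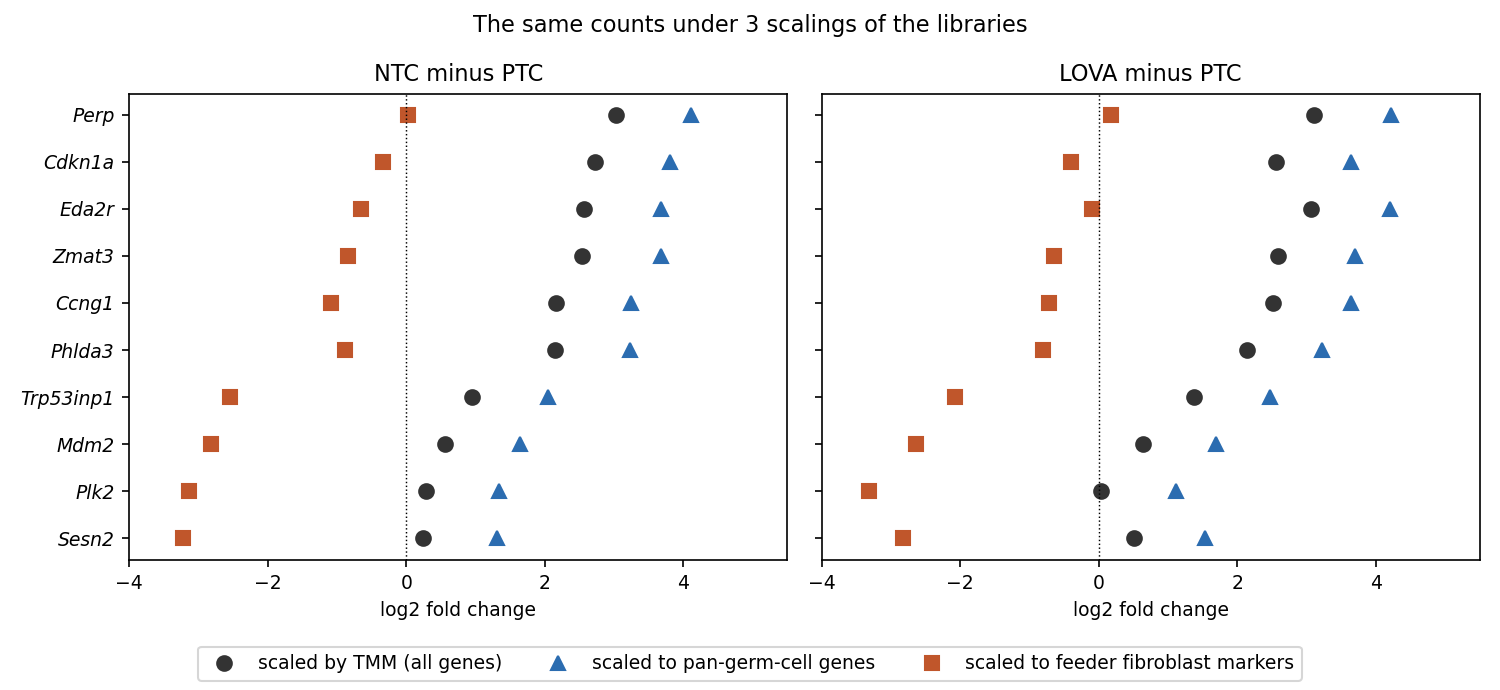
Log2 fold change against PTC (horizontal axes) of each gene with libraries scaled by TMM, to the pan-germ-cell genes or to the feeder fibroblast markers. The order of the genes is nearly the same under the 3 scalings while all values shift together, so that 9 of 10 are below 0 with feeder scaling and all are above 0 with the other 2.

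**Figure D5:**
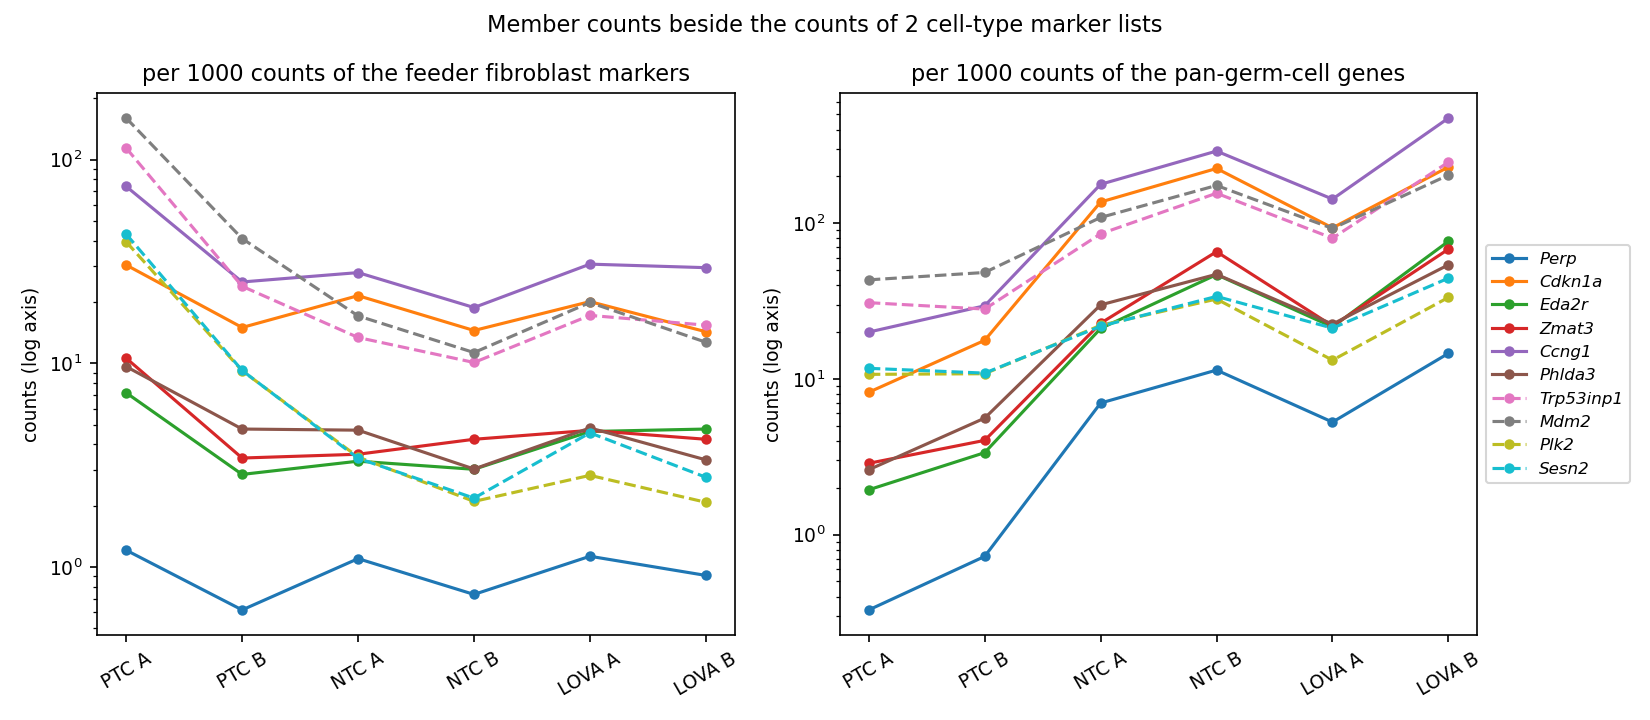
Counts of each gene per 1000 counts of the feeder fibroblast markers (left) or the pan-germ-cell genes (right), on log axes, in the 6 libraries; solid lines are the 6 steep genes and dashed lines the 4 shallow ones. On the left the solid lines are nearly level beyond PTC A while the 4 dashed lines fall from PTC to NTC and LOVA. On the right all lines rise from PTC to NTC and LOVA.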

How the data were processed

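Gene counts of 6 libraries were used. In the deposited table each Ensembl gene has an unnormalized, whole-number count per library. Trimmomatic, RSEM, Bowtie2 and DESeq2 appear in the submitters' processing notes, with build mm10 and no version or role. Counts made by RSEM would be rounded estimates; their origin is not given in the sources used here. Column letters A and B cannot be tied to the labels' replicate numbers. Symbols, coordinates and exon lengths came from GENCODE M21, which matched 31363 of 31384 identifiers.

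Genes were filtered by filterByExpr, scaled by TMM and fitted in edgeR 4.0.16 (R 4.3.3) with 1 coefficient per group, leaving 3 residual degrees of freedom; the robust quasi-likelihood test was adjusted by Benjamini-Hochberg over 16121 genes. A floor of 3 counts was between 0.128 and 0.258 CPM; it covers counting error only. Alternatives used DESeq2 1.42.0, limma 3.58.1, other scalings, filters and samples. The fit was tested on simulated counts. The members, 15 further lists and the rule for named genes (from each list up to 2 called genes of largest change a comparison, otherwise the 2 most abundant, with Trp53 and Mdm4 always) were chosen with earlier results of these data known; named genes that no result turns on are left out.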

Additional observations from a re-analysis of the deposited data

How the results depend on the processing

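The number of members called higher stayed within 1.5 times its value (7 in NTC minus PTC, 8 in LOVA minus PTC, 0 in LOVA minus NTC) with DESeq2 size factors, total counts, pan-germ-cell scaling, no filter, DESeq2, limma-voom and only the 2 groups compared. With libraries scaled to the feeder markers it was 0 higher and 3 lower in both comparisons with PTC. Leaving out 1 library gave 0 (without NTC B) to 8 in NTC minus PTC and 4 (without LOVA B) to 9 in LOVA minus PTC; where a group kept 1 library, that library was assumed to vary like the others. With a replicate block by column letter 8, 9 and 0 members were called higher. This added Mdm2 in NTC minus PTC (0.56, edgeR adjusted p = 0.00731) and Sesn2 in LOVA minus PTC (0.50, edgeR adjusted p = 0.0289). Of all genes tested, 27.4%, 26.5% and 0.112% were called higher with the block, against 21.5%, 19.8% and 0% without it. The letters are not known to pair libraries. Same-letter libraries deviated together with correlations of 0.31 (PTC and NTC), 0.35 (PTC and LOVA) and 0.48 (NTC and LOVA).

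Signs that turned, for log2 fold changes, were these. Feeder scaling gave in NTC minus PTC -0.33 (Cdkn1a), -2.82 (Mdm2), -1.08 (Ccng1), -2.55 (Trp53inp1), -3.22 (Sesn2), -0.84 (Zmat3), -0.66 (Eda2r), -0.89 (Phlda3) and -3.13 (Plk2). In LOVA minus PTC it gave -0.40, -2.63, -0.72, -2.08, -2.83, -0.65, -0.09, -0.81 and -3.31 for the same genes. In LOVA minus NTC it gave 0.08 for Phlda3. Plk2 in LOVA minus PTC was -0.07 with total counts, -0.01 without a filter, 0 with limma-voom and -0.28 to 0.29 with 1 library left out. In LOVA minus NTC, leaving out 1 library gave ranges of -0.45 to 0.08 (Cdkn1a), -0.11 to 0.25 (Mdm2), -0.21 to 0.75 (Ccng1), -0.07 to 0.78 (Trp53inp1), -0.45 to 0.66 (Zmat3), -0.11 to 0.94 (Eda2r), -0.28 to 0.22 (Phlda3), -0.29 to 0.40 (Perp) and -0.56 to 0.01 (Plk2). Apart from the feeder scaling, its construction being the division by counts that were higher without GDNF, the cause was not tested. Over all genes, calls in NTC minus PTC ranged from 1 higher and 0 lower (without NTC B) to 5200 higher (pan-germ-cell scaling) and 11855 lower (feeder scaling), in LOVA minus PTC from 26 higher (feeder) and 33 lower (pan-germ-cell) to 4565 higher and 11511 lower, and in LOVA minus NTC from 0 to 44 higher and 147 lower (no filter).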
